A study of Mus musculus with 18 samples.

Results

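MiR-202 is a microRNA made from a single hairpin, and its mature products, miR-202-5p and miR-202-3p, were followed through all 18 small RNA libraries of this study. The deposited names mmu-miR-202-5p and mmu-miR-202-3p were taken from the 1431 mature miRNAs that each table lists. These 2 members were chosen by name, with earlier results of these data known. The study sequenced left and right eyes, left and right lungs and left and right testicles, with 3 libraries in each of the 6 groups. The mice were C57BL/6 males, 8 to 12 weeks old in every group, and the labels name no mutation or treatment. They do not say whether each library came from its own mouse, nor whether a left and a right library shared one. The p-values therefore measure only the spread between these libraries. The organs were sequenced whole, so a value is an average over all cell types, and fewer cells of a type cannot be told apart from less RNA per cell.

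MiRNAs are cut from a hairpin precursor by Drosha and Dicer, and an arm is loaded into an Argonaute protein, where the bases after its first base, the seed, pair with target messenger RNAs. Each arm therefore has its own seed and its own targets. MiR-202 is known as a gonadal miRNA. In mice it is described in Sertoli cells, the somatic nurse cells of the seminiferous tubule, in germ cells, and in ovarian granulosa cells, and its loss in mouse spermatogonia has been described as bringing differentiation and meiosis forward.

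The sequences below are RefSeq's (build GRCm38.p6) and are shown because the arms and their seeds are the objects counted. Capitals in the mature sequences mark bases 2 to 8, the seed, and capitals in the hairpin mark the mature arms.
miR-202-5p: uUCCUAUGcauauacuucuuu
miR-202-3p: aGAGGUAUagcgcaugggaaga
Mir202 hairpin: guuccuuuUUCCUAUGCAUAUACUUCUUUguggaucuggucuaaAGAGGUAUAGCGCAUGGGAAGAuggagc

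The hairpin of 72 bases lies on the minus strand at chr7:139957689-139957760 (GRCm38.p6), with miR-202-5p at 139957732 to 139957752 and miR-202-3p at 139957695 to 139957716. In the GENCODE M21 annotation it falls inside exon 2 of Gm2044, annotated as a lincRNA, which runs from 139957005 to 139958039 on the same strand, and inside an intron of Gm16201 on the plus strand. Folded with RNAfold, the hairpin had a predicted free energy of -35.5 kcal per mol, with 18 base pairs between the arms and 15 bases between them, and all 7 seed bases of each arm were paired. Among 1678 other RefSeq mouse mature sequences, the nearest to miR-202-5p differed by 7 edits and the nearest to miR-202-3p by 8, so no near-identical miRNA was found for either arm. A second hairpin, mir-7686, is annotated in the same exon, at 139957566 to 139957622. Its arms had almost no counts: miR-7686-3p had 6 counts and miR-7686-5p 1 count over all testicle libraries, and neither had any in eye or lung.

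The libraries held 952608 to 1893132 counts in the testicle, 2451484 to 2680204 in the eye and 2538402 to 2790471 in the lung. Levels are given in CPM, the count divided by the library total and multiplied by 1000000. Where a count is 0, the limit it sets is 3 counts, or 1.58 to 3.15 CPM for testicles and 1.08 to 1.22 CPM for the other organs. Such limits, and all intervals on counts here, cover counting error only. The organ labels were checked against marker miRNAs. Eye markers, such as miR-204-5p and miR-183-5p, summed to between 280213 and 315709 CPM in eye libraries and at most 28568 CPM elsewhere. Lung markers, such as miR-10a-5p, summed to between 47153 and 61462 CPM in lung libraries and at most 17593 CPM elsewhere. Of this list miR-375-3p was highest in the testicle, at 13298 ± 1002 CPM (SD, n = 6). The X-linked miR-506 family, made during spermatogenesis, summed to between 143674 and 207725 CPM in testicle libraries and at most 363 CPM elsewhere.

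MiR-202-5p was one of the most abundant miRNAs of the testicle. It had 43620.3, 39913 and 35530.4 CPM in left testicles 1, 2 and 3, and 34758, 36962 and 37921 CPM in right testicles 1, 2 and 3. It ranked between 4 and 6 among all miRNAs of every testicle library and held 3.48% to 4.36% of its counts. Its spread between testicles was narrow, with a mean of 38117 ± 3251 CPM (SD, n = 6) and a coefficient of variation of 8.53%. Among the 97 tested miRNAs with a mean of at least 1000 CPM in the testicle, the median coefficient of variation was 18.3%, and 14 were less variable than miR-202-5p.

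MiR-202-3p was also a regular testicle miRNA, at a lower level. Left testicles 1, 2 and 3 had 2593, 1831 and 2345 CPM, and right testicles 1, 2 and 3 had 3157, 1719 and 2016 CPM. Its rank lay between 55 and 75, and its mean was 2277 ± 540 CPM (SD, n = 6). Its coefficient of variation was 23.7%, and 63 of the 97 abundant miRNAs varied less.

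In eye and lung libraries both arms were counted at low levels. MiR-202-5p had 9 to 56 counts in an eye library and 23 to 300 in a lung library, against 41553 to 69973 in a testicle library. In CPM the eyes lay between 3.36 and 22.8 with a median of 8.59, and the lungs between 8.86 and 110 with a median of 39.4. MiR-202-3p had 0 or 1 count in each eye library and 0 to 7 in each lung library, against 2470 to 4827 in a testicle library. It was at 0 in 3 eye libraries and in 1 lung library. Every testicle library lay above every eye and lung library for either arm.

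**Figure D1:**
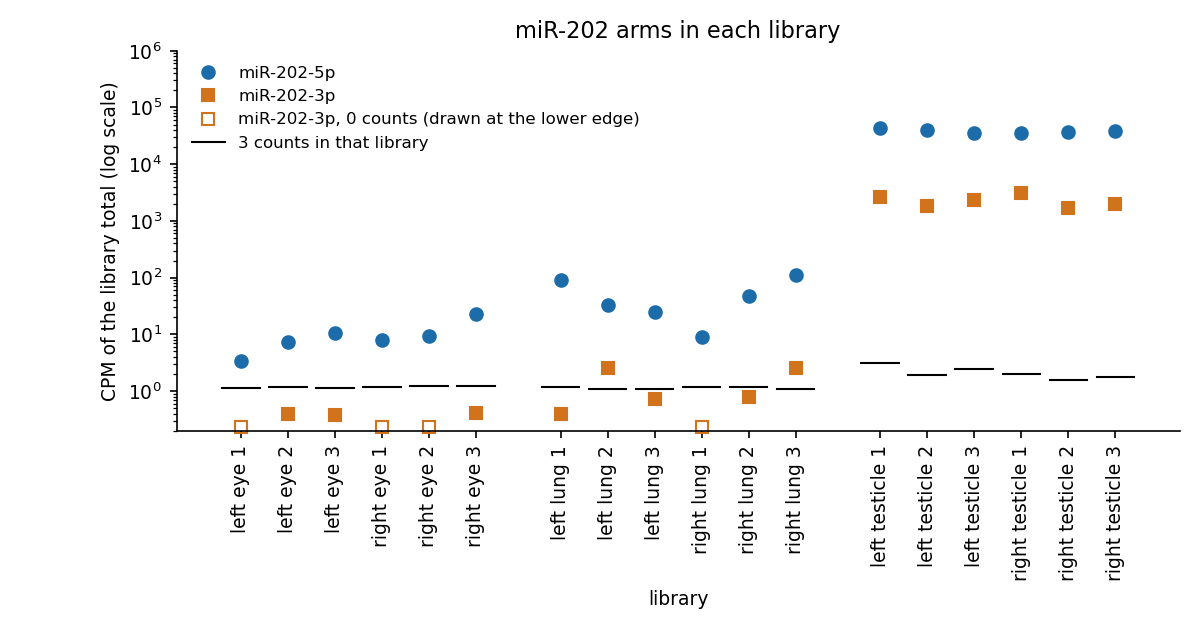
Level of miR-202-5p (circles) and miR-202-3p (squares) in each of the 18 libraries, in CPM of the library total on a log axis. Short lines mark what 3 counts amount to in that library, and open squares at the lower edge are libraries with 0 counts. The 6 testicle libraries lie between 34758 and 43620.3 CPM for the 5p arm and between 1719 and 3157 CPM for the 3p arm, while the 3p arm has 0 to 7 counts in eye and lung.

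The organs were compared with edgeR's quasi-likelihood test over all 642 miRNAs that passed the filter on low counts, which both arms did, after scaling by the trimmed mean of M values (TMM) against a reference library. On the log2 scale miR-202-5p was higher in the testicle than in the eye by 12.21 (SE 0.70, adjusted p 1.0e-10 by edgeR) and higher than in the lung by 9.92 (SE 0.64, adjusted p 6.2e-10). For miR-202-3p these differences were 13.48 (SE 0.69, adjusted p 3.1e-11 by edgeR) and 11.27 (SE 0.61, adjusted p 7.6e-11). The 3p arm passed the filter through the testicle libraries and did not pass it within eye or lung, so its calls here were largely fixed by the filter. Calls of this kind were common between these organs: 39.1% of the tested miRNAs were called higher in the testicle than in the eye (79.3% in either direction) and 49.1% higher than in the lung (76.5% in either direction). By size the arms stood further out, with miR-202-3p ranking 4 and miR-202-5p 21 among the 251 miRNAs called higher than in the eye. Among the 315 called higher than in the lung they ranked 9 and 37. The fold of the 3p arm over the eye rests on 3 counts: as a ratio of summed counts to summed library totals it was 11308, with a 95% counting interval from 3869 to 54837. Over the lung, where it had 19 counts, this ratio was 1870.3 (counting interval 1197 to 3107). Without right eye 3 the log2 fold change of miR-202-3p over the eye was 14.52, and its value over the lung was 11.90 without right lung 3 and 10.69 without right eye 2. Without right eye 2 that of miR-202-5p over the lung was 9.27, and with left libraries only its value over the eye was 12.93.

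The lung held more miR-202-5p than the eye. It was higher in the lung by 2.29 on the log2 scale (SE 0.48, adjusted p 4.8e-04 by edgeR), with 830 counts over the 6 lungs and 153 over the 6 eyes. The groups overlapped, since right lung 1, at 8.86 CPM, lay within the range of the eyes. The other 5 lungs lay above every eye. For miR-202-3p the difference was 2.20 (SE 0.78, adjusted p 0.021 by edgeR), on 19 counts against 3. This arm passed the filter through the testicle libraries and did not pass it within eye or lung, so little can be read from its p-value. Of the tested miRNAs, 24.5% were called higher in the lung than in the eye (59.8% in either direction). The call for miR-202-3p was lost without left lung 2 (1.86; edgeR adjusted p 0.061), without right lung 3 (1.56; edgeR adjusted p 0.13) and with right libraries only (2.42; edgeR adjusted p 0.13), and its value was 3.24 without right eye 3. That for miR-202-5p was lost with right libraries only (1.75; edgeR adjusted p 0.053), while its value was 2.90 without right eye 2, 3.44 with left libraries only and 2.99 with left testicle 1 as the reference of the scaling. With left lung 1 and right lung 3 both left out, the log2 fold change of miR-202-5p was 1.85 (edgeR adjusted p 6.3e-04) and that of miR-202-3p 2.12 (edgeR adjusted p 0.037).

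Left and right organs did not differ detectably in miR-202. In the testicle, miR-202-5p had 39688 ± 4050 CPM on the left and 36547 ± 1622 on the right (SD, n = 3 each). After TMM scaling the sides differed by 0.02 on the log2 scale (SE 0.13, adjusted p 0.96 by edgeR). MiR-202-3p had 2256 ± 389 and 2297 ± 759 CPM (log2 difference -0.14, SE 0.34, adjusted p 0.92 by edgeR). The ranges of the sides overlapped for both arms. In the eye miR-202-5p had 54 counts over the 3 left libraries and 99 over the 3 right ones (log2 difference -1.12, SE 0.52, adjusted p 0.98 by edgeR), and in the lung 389 and 441 (-0.15, SE 0.83, adjusted p 0.96). MiR-202-3p did not pass the filter within eye or lung. By edgeR 0% of the tested miRNAs were called between the sides of any organ. Unadjusted p values under 0.05 numbered 18 of 487 in the eye, 1 of 430 in the lung and 36 of 464 in the testicle, and DESeq2 called 1, 0 and 1.

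The 5p arm outnumbered the 3p arm in every library. In the testicle the ratio of 5p to 3p counts was 16.8, 21.8 and 15.2 in left testicles 1, 2 and 3, and 11.0, 21.5 and 18.8 in right testicles 1, 2 and 3. The 3p arm therefore made up 5.67% ± 1.47 (SD, n = 6) of the miR-202 counts of a testicle library. Right testicle 1 had the highest share, 8.33% (Wilson 95% interval 8.10 to 8.55), and left testicle 2 the lowest, 4.39% (4.23 to 4.55). The intervals cover the counting of reads in 1 library and not the spread between libraries. The means by side were 5.40% ± 0.92 on the left and 5.94% ± 2.09 on the right (n = 3 each; exact two-sided permutation test, p = 0.80), where the smallest p that 3 against 3 allows is 0.10. Red cell miRNAs also varied between testicles: their summed level was 234 CPM in left testicle 1 and 269 CPM in right testicle 1, against 4590 to 8216 CPM in the other 4. The miR-506 family summed to 207725 CPM in right testicle 1 and to at most 180197 CPM in the other testicles. The part of either in the arm share was not tested.

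**Figure D2:**
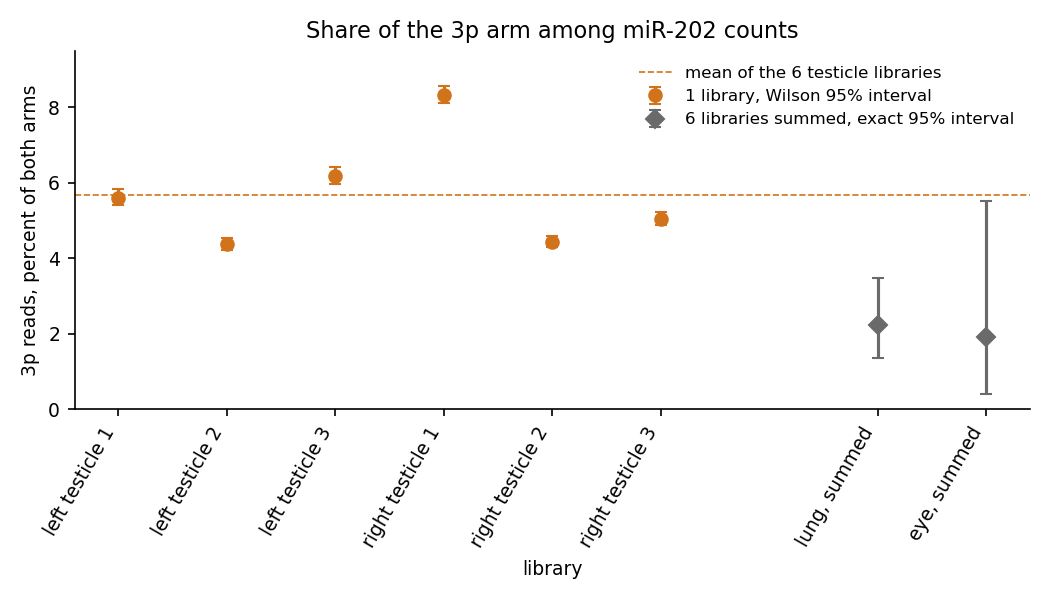
Share of the 3p arm among miR-202 counts, in percent, for each testicle library (circles, Wilson 95% intervals) and for the 6 lung and the 6 eye libraries summed (diamonds, exact 95% intervals). The dashed line is the testicle mean of 5.67%, and right testicle 1 stands highest at 8.33%.

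Beside other miRNAs the arms of miR-202 were less uneven than most. Of 254 hairpins with both arms listed and at least 100 counts over the testicle libraries, 145 had more 5p than 3p counts. With 0.5 counts added to each arm, the median absolute log2 ratio of their arms was 5.31, and that of miR-202 was 4.09. In 155 of the 254 the arms were more uneven than in miR-202. The SD of its log2 ratio between testicles was 0.37, against a median of 0.54 over the 72 hairpins with at least 10000 counts, of which 54 had more uneven arms than miR-202. That limit is on both arms summed. Where the minor arm has few counts, as in let-7b (log2 ratio 16.18), the SD also holds counting error.

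**Figure D3:**
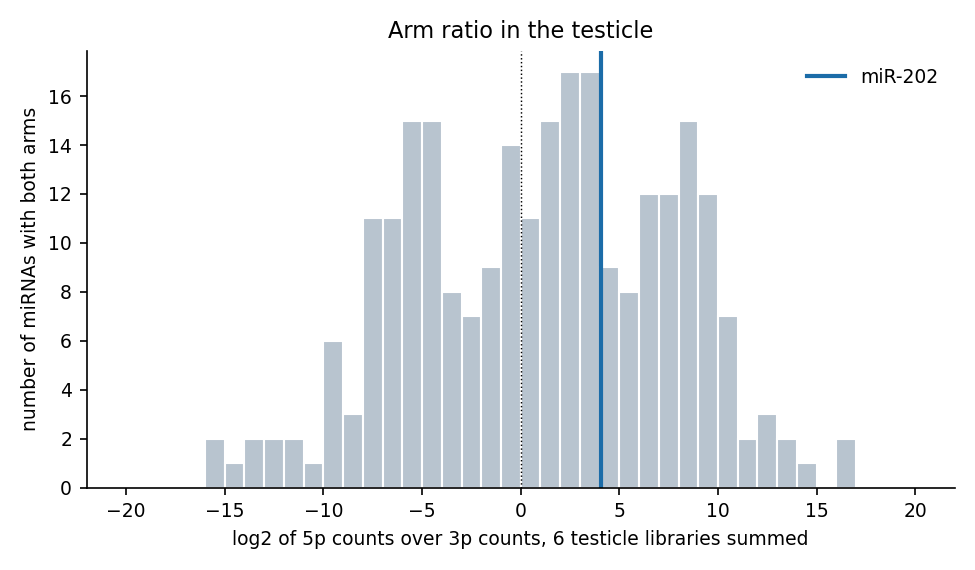
Number of hairpins (vertical axis) by the log2 ratio of 5p to 3p counts over the 6 testicle libraries summed (horizontal axis), for the 254 hairpins with at least 100 counts. The line marks miR-202 at 4.09, inside the broad right-hand range, and 155 hairpins lie further from equal arms.

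Summed over libraries, the few miR-202 counts of eye and lung held a smaller 3p share than those of the testicle. The calls on this difference were not stable across settings. Over the 6 lungs 19 of 849 counts were 3p, or 2.24% (exact 95% interval 1.35 to 3.47), and over the 6 eyes 3 of 156, or 1.92% (0.398 to 5.52). The pooled testicle share of 5.56% would give 47.2 of the lung counts and 8.67 of the eye counts. Single libraries spread widely. Left lung 1 had 1 count of the 3p arm beside 231 of the 5p arm, and left lung 2 had 7 beside 88, a share of 7.37% (Wilson 95% interval 3.61 to 14.4). Over libraries, the mean share was lower by 3.25 percentage points in the lung than in the testicle (exact two-sided permutation test over 924 regroupings, p = 0.032, adjusted over 3 organ pairs 0.049). In the eye it was lower by 3.90 percentage points (exact permutation p = 0.011, adjusted 0.032). Lung and eye differed by 0.66 percentage points (exact permutation p = 0.66, adjusted 0.66). Neither call against the testicle held when the log2 ratio of the arms, with 0.5 counts added to each, replaced the share (exact permutation adjusted p 0.071 for lung and 0.18 for eye). Where the 3p arm had 0 counts, the added 0.5 largely set this ratio, so it decides little there. It was 4.25 in left eye 1, 5.36 and 5.55 in right eyes 1 and 2, and 5.55 in right lung 1. The testicle mean was 4.09. Leaving out 1 library ended the call against the lung in 11 of 12 cases (all but left lung 2), with exact permutation adjusted p values up to 0.097. The call against the eye ended in 4 of 12 cases, when left testicle 1 or 3 or right testicle 1 or 3 was left out, with exact permutation adjusted p values up to 0.065.

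The libraries with the highest traces of miR-202-5p in eye and lung were also those with the highest summed miR-506 family. Set against the mean testicle level, miR-202-5p reached 0.288% in right lung 3, 0.234% in left lung 1 and 0.122% in right lung 2, and 0.0232% to 0.0848% in the other 3 lungs. The miR-506 family, 37 names with 35 distinct count profiles, was also highest in these lungs, at 0.210%, 0.137% and 0.0655% of its testicle level, and 0.0331% to 0.0481% in the others. In the eyes miR-202-5p stood at 0.00881% to 0.0599% and the family at 0.00711% to 0.0375%, with right eye 3 highest and left eye 1 lowest for both. Within a library, the ratio of miR-202-5p to the summed family was 0.205 to 0.352 in the eyes, 0.154 to 0.410 in the lungs and 0.167 to 0.278 in the testicles. The medians were 0.270, 0.339 and 0.213. Right lung 1, at 0.154, lay below every testicle, and the other 5 lungs lay above every testicle. Between lung and eye, 8 of the 34 tested arms of the family were called higher in the lung, where 24.5% of all tested miRNAs were. Their median log2 fold change was 0.87 beside 2.29 for miR-202-5p, but only 2 arms passed the filter within the eye and 9 within the lung. Summed, the family had 36.3 ± 17.1 CPM in eyes and 156 ± 120 in lungs (SD, n = 6 each). For miR-202-5p these values were 10.2 ± 6.66 and 51.9 ± 39.3 CPM. Of the family's 37 names, 15 had 0 counts over all eyes and 10 over all lungs. Defining members of the family were present as traces too: testicles had 26987 ± 4937 CPM of miR-470-5p, lungs 21.0 ± 16.0 and eyes 3.59 ± 2.83 (SD, n = 6 each). The part of RNA from testicle in the miR-202 counts of eye and lung, and so in the difference between lung and eye, was not tested.

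**Figure D4:**
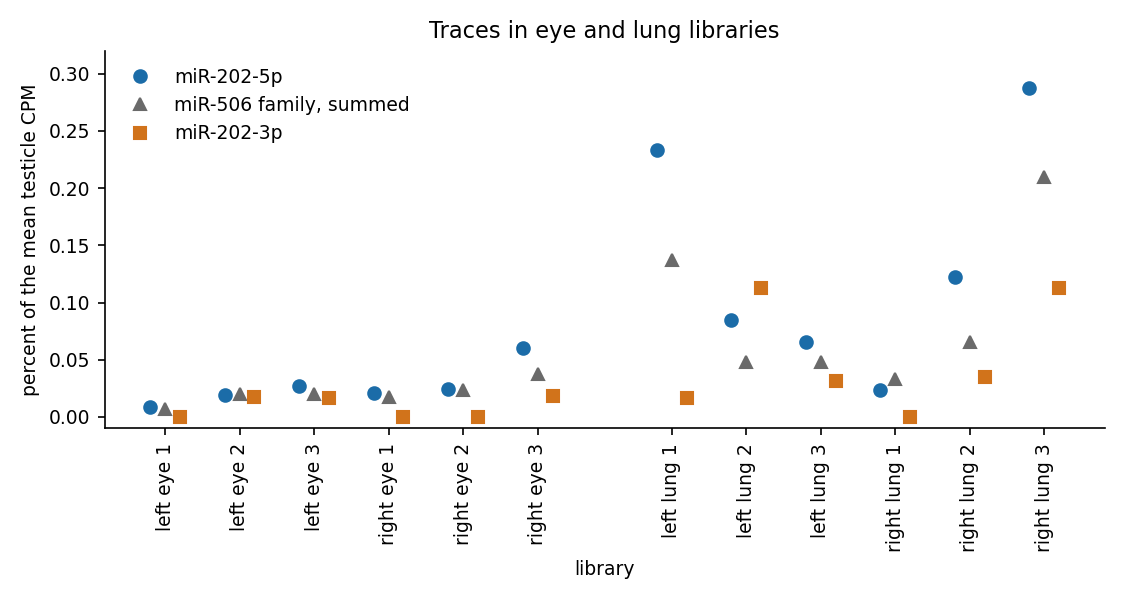
Level in each eye and lung library as a percent of the mean testicle CPM, for miR-202-5p (circles), the summed miR-506 family (triangles) and miR-202-3p (squares). Circles and triangles are both highest in right lung 3 (0.288% and 0.210%) and left lung 1 (0.234% and 0.137%), while the squares rest on 0 to 7 counts.

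The miRNAs whose profile over the 18 libraries was most like miR-202 were all arms of the miR-506 family. Likeness was the root-mean-square difference of log2(CPM + 1) after each miRNA's own mean was subtracted, among 641 candidates. For miR-202-5p the nearest was miR-463-5p (0.47), followed by miR-465a-3p, miR-465b-3p and miR-465c-3p, whose counts are identical (0.49), and miR-741-3p (0.49). The level of miR-463-5p was 7551 ± 1298 CPM in testicles, 5.85 ± 4.39 in lungs and 0.934 ± 0.668 in eyes (SD, n = 6 each). For miR-202-3p the nearest was miR-743a-3p (0.31), with 2325 ± 567 CPM in the testicle, 1.11 ± 1.03 in the lung and 0.332 ± 0.301 in the eye. It was followed by miR-547-3p (0.57), miR-465b-5p (0.60), miR-201-5p (0.65) and miR-741-3p (0.67). The arms of miR-202 differed from each other by 0.90, which placed miR-202-3p at 9 in the order for miR-202-5p and miR-202-5p at 10 in the order for miR-202-3p. On this scale levels under 1 CPM, such as miR-202-3p in the eye, are compressed.

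Among other miRNAs described in the testicle, 34 arms of the miR-506 family, of 37 listed, passed the filter on low counts. All 34 were called higher in the testicle than in either other organ, but most passed the filter through the testicle libraries alone, so this count was largely fixed by the filter. Within the testicle 33 arms passed, against 2 within the eye and 9 within the lung. Their median log2 fold change was 12.28 over the eye, where the median of all tested miRNAs was -0.05, and 10.70 over the lung, where it was 0.90. The family of miR-34 and miR-449, which ciliated cells share with germ cells, had 8 of 8 tested members called higher than in the eye, where 39.1% of all tested miRNAs were, and 7 of 8 higher than in the lung, where 49.1% were. These families kept the same counts under all 5 scalings tried. The lung also had high levels of this second family, with miR-449a-5p at 10976 ± 4327 CPM there against 68085 ± 10990 in testicles and 128 ± 23.9 in eyes (SD, n = 6 each). Of 4 tested miRNAs described in spermatogonia, 2 were called higher and 2 lower than in the eye, and 1 higher and 3 lower than in the lung. Over all tested miRNAs 39.1% were higher and 40.2% lower than in the eye, and 49.1% higher and 27.4% lower than in the lung. The miR-21a-5p of this list, also found in many other cells, stood at 8233 ± 1821 CPM in testicles against 20995 ± 5411 in lungs. The lists of other cell types are small and are read against the same shares. Against the eye, 3 of 3 smooth muscle miRNAs were called higher in the testicle, 4 of 4 striated muscle miRNAs lower, 3 of 5 leukocyte miRNAs higher and 1 lower, 0 of 2 endothelial miRNAs either way, and 2 of 5 red cell miRNAs higher and 2 lower, which is near the background. Against the lung, 5 of 5 leukocyte and 2 of 2 endothelial miRNAs were called lower, 1 of 3 smooth muscle miRNAs lower, 1 of 4 striated muscle miRNAs higher and 0 of 5 red cell miRNAs either way.

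The seeds of the arms place them differently. No other RefSeq mouse mature miRNA shares bases 2 to 8, or even bases 2 to 7, with miR-202-5p. MiR-202-3p shares bases 2 to 7 with 12 others, of which 10, all let-7 miRNAs or miR-98-5p, are in the tables. The let-7 family is known for holding back growth and stem cell genes in differentiated cells. These sequences show the overlap, with bases 2 to 8 in capitals.
miR-202-3p: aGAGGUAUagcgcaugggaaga
let-7a-5p: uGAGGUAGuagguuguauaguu
let-7d-5p: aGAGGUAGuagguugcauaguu
let-7j: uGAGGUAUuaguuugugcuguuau

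Counted from 1 at the 5′ end with the base of miR-202-3p first, the first 8 bases of let-7a-5p differ by A1U and U8G, those of let-7d-5p by U8G alone, and those of let-7j by A1U alone. All 10 relatives in the tables have the bases 2 to 8 of let-7a-5p. Let-7j, the only miRNA with the full seed of miR-202-3p, is not analysed here, and neither is miR-1961.

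In the testicle miR-202-3p was a small part of the miRNAs with these bases. The 10 relatives summed to between 82129 and 153258 CPM in a testicle library, which was 31.7 to 80.7 times the level of miR-202-3p. It made up 3.06%, 1.46% and 1.91% of the summed pool in left testicles 1, 2 and 3, and 2.44%, 1.22% and 1.30% in right testicles 1, 2 and 3. Its share was highest in left testicle 1, where the relatives were lowest. In level miR-202-3p stood above let-7k and miR-98-5p in every testicle library and above let-7e-5p in 3 of 6. Let-7e-5p had 1962 ± 515 CPM in the testicle, miR-98-5p 749 ± 227 and let-7k 1.86 ± 1.31 (SD, n = 6 each), while the most abundant relative, let-7c-5p, had 28769.5 ± 4942. In eye and lung all 10 relatives stood above miR-202-3p in every library, and its share of the pool was at most 0.00155%.

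Between testicle and eye the relatives went in both directions, while against the lung all calls were lower in the testicle. By edgeR, 2 of the 10, let-7a-5p and let-7f-5p, were called higher in the testicle than in the eye, by log2 fold changes of 0.58 and 0.41, and 3 were called lower, let-7e-5p, miR-98-5p and let-7k, by -1.24, -0.995 and -3.67. Of all tested miRNAs 39.1% were called higher and 40.2% lower than in the eye, and 49.1% higher and 27.4% lower than in the lung. The median of the 10 was -0.04 beside -0.05 for all tested miRNAs. Against the lung 0 were called higher and 6 lower, with a median of -0.75 beside 0.90. Over the 5 scalings, the calls against the eye ranged from 0 to 2 higher and 3 to 5 lower, and those against the lung from 6 to 9 lower with none higher.

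**Figure D5:**
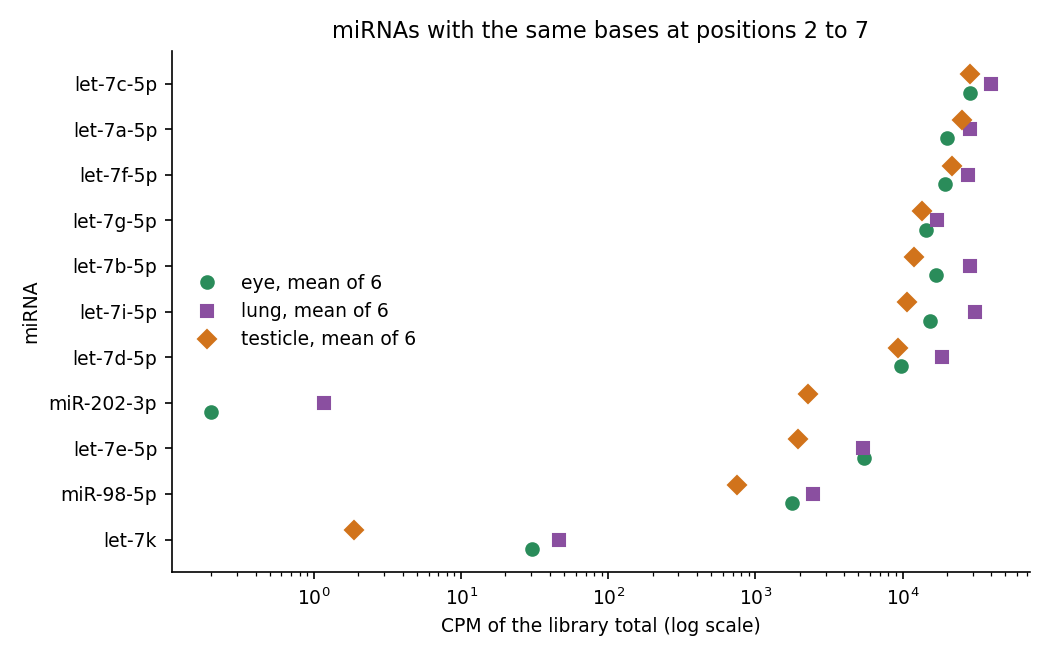
Mean CPM of the library totals (n = 6 libraries per organ, log axis) of miR-202-3p and the 10 listed miRNAs that share its bases 2 to 7, in eye (circles), lung (squares) and testicle (diamonds). MiR-202-3p spans from 0.198 CPM in the eye to 2277 CPM in the testicle, while let-7c-5p lies at 28753 and 28769.5 CPM in the same organs.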

How the data were processed

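Small RNA libraries were prepared with the BGI-500 procedure from total RNA, per the labels' protocols. Each library has its own deposited table of raw counts (whole numbers, 1 row for each mature miRNA). Per the submitters' processing notes the genome build was GRCm38.p6. For aligner, counting program and molecular identifiers the entry is: not given in the sources used here. All 18 libraries were used, grouped by the labelled organ and side, and total counts ran from 952608 to 2790471.

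Levels are CPM of the library totals, with no correction for length or for sequence-dependent capture. Tests used edgeR 4.0.16 (R 4.3.3): filterByExpr by group, scaling by trimmed mean of M values (TMM), quasi-likelihood testing, and a threshold of 0.05 on p-values adjusted by Benjamini-Hochberg over all tested miRNAs. Organs were compared in 1 model of all 18 libraries, averaging left and right, and sides within each organ on its 6 libraries. The SE is the log2 fold change divided by the square root of F. Fold changes use TMM scaling and so differ from ratios of CPM. The procedure was tested on simulated data. Arm shares were compared with exact permutation tests (scipy 1.17.1), and the hairpin was folded with ViennaRNA 2.7.2. Alternatives were other scalings, no filter, DESeq2 1.42.0, each side alone, a replicate block, the log2 ratio of the arms and leaving out libraries.

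Named miRNAs were both arms, those sharing their bases 2 to 7, the 5 nearest profiles per arm, and up to 3 of the most abundant members of each list, of which only part are printed. MiR-7686 was added after its position was seen. The lists covered let-7, the miR-506 and miR-34 and miR-449 families, spermatogonial, eye, lung and red cell miRNAs, and 4 lists of other cell types (endothelial, leukocyte, smooth muscle and striated muscle). The members and lists were chosen with earlier results of these data known.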

Additional observations from a re-analysis of the deposited data

Results flagged for a closer look

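MiR-202-5p in right eye 3 stood apart from the other eyes, at 22.8 CPM (56 counts) against 10.3 CPM in the next highest, left eye 3. Its gap to the next value was 0.64 of the range of the 6 eyes, above Dixon's 95% critical value for 6 values. Chance marks about 1 in 20 such groups, and 9 groups of values were examined. The miR-506 family was highest in the same eye, at 64.9 CPM. Without right eye 3 miR-202-5p was still called higher in the lung than in the eye (log2 fold change 2.84).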

How the results depend on the processing

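The higher level of both arms in the testicle than in eye and lung held under all 31 alternatives for each arm, with log2 fold changes of 11.72 to 12.93 and 9.27 to 10.46 for miR-202-5p, and 13.04 to 14.52 and 10.69 to 11.90 for miR-202-3p. The difference between lung and eye held for miR-202-5p in 30 of 31 alternatives and for miR-202-3p in 28 of 31. With right libraries only it was 1.75 and 2.42 and no longer passed. Leaving out 1 library gave 1.87 to 2.90 and 1.56 to 3.24.

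Between sides, signs turned without any call. For miR-202-5p in the testicle the log2 fold change was -0.034 with relative log expression scaling, -0.087 without the filter, -0.034 with DESeq2, -0.076 with left and right testicle 1 left out (an alternative chosen after seeing the data), and -0.085 to 0.076 with 1 library left out. For miR-202-3p it was 0.10 without both testicles numbered 1 and -0.37 to 0.22 with 1 library left out, and for miR-202-5p in the lung -1.07 to 0.84. Calls over all miRNAs numbered 6 (no filter) and 1 (DESeq2) between eyes, 1 (no filter) between lungs, and 1 (DESeq2) and 1 (both testicles numbered 1 left out) between testicles. With 1 library left out they numbered 0 to 1 in eye and testicle.

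The lower 3p share in eye and lung kept its sign, but its calls were not stable. The call against the eye held in 8 of 15 alternatives and that against the lung in 1 of 16. Testicle against eye gave 3.25 percentage points without both testicles numbered 1 and 3.37 to 4.60 with 1 library left out. Testicle against lung gave 2.597 without those testicles, 2.71 without left lung 1 and right lung 3 (chosen after seeing the data) and 2.72 to 4.24 with 1 library left out. As log2 ratios, with the sign turned so that positive means more 3p, the differences were 0.61 and 1.26. For lung against eye the log2 value was -0.65, while the share difference ran from -0.33 to 1.36. Between testicle sides it was 0.54 without those numbered 1 and -1.29 to 0.65 with 1 library left out. The 3 against 3 and smaller comparisons of sides could not reach the threshold in an exact test. The cause of these changes was not tested.

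Same-numbered left and right libraries did not deviate together in every pair. Eye pairs 1, 2 and 3 had correlations of -0.11, -0.42 and -0.13, each below the highest correlation between different numbers. For lungs these values were 0.16, -0.019 and 0.39, and for testicles 0.24, 0.021 and 0.12. Pairs 1 and 3 of both these organs exceeded the highest correlation between different numbers, and pair 2 did not. The main tests did not take the numbers to pair libraries, but for lung and testicle this was not settled. With the replicate number as a block, the shares differed by 3.90 (eye) and 3.25 (lung) percentage points and neither call held, with adjusted p values of 0.083 and 0.11 by exact permutation, and edgeR's calls for miR-202 were the same, with log2 fold changes of 12.30 (testicle against eye) and 9.96 (testicle against lung) for miR-202-5p. In eye and lung 0 to 7 counts of miR-202-3p limit every statement on that arm.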
